A study of Mus musculus with 20 samples.

Results

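The synaptic vesicle release machinery was examined in the preoptic area (POA) of 20 male mice by RNA-seq of whole tissue. It was taken as 38 genes chosen by symbol: 5 genes of the SNARE proteins and their regulator, 2 of SNARE disassembly, 7 synaptotagmins, 2 complexins, 3 synapsins, 6 vesicle membrane proteins, 3 Rab3 genes, 7 active zone genes and 3 transporters that load transmitter. All 38 were found among the 25239 genes of the count table, and all 38 passed the filter on low counts in every comparison. The mice came in 4 groups of 5: control or dnFGFR males, each housed with a same sex (SS) or opposite sex (OS) partner from PND20 and collected at PND320. dnFGFR mice were homozygous for a dominant-negative FGF receptor 1, truncated so that it lacks the kinase domain, which a rat GnRH promoter drives in GnRH neurons; control mice came from matings of heterozygous siblings. The transgene is therefore directed to few cells of the dissected block, and OS-housed pairs also bred and raised pups, so that partner sex and parenthood cannot be told apart.

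At a nerve terminal, vesicles are filled with transmitter by transporters, tethered and primed at the active zone, and fused when calcium acts on a synaptotagmin. Fusion is driven by a SNARE bundle of the vesicle protein VAMP2 with syntaxin 1 and SNAP25 on the plasma membrane, which complexins hold ready and which NSF with SNAP proteins takes apart for reuse. In the POA these parts serve excitatory and inhibitory terminals. The study states that very few direct synaptic inputs reach GnRH neurons.

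**Figure D1:**
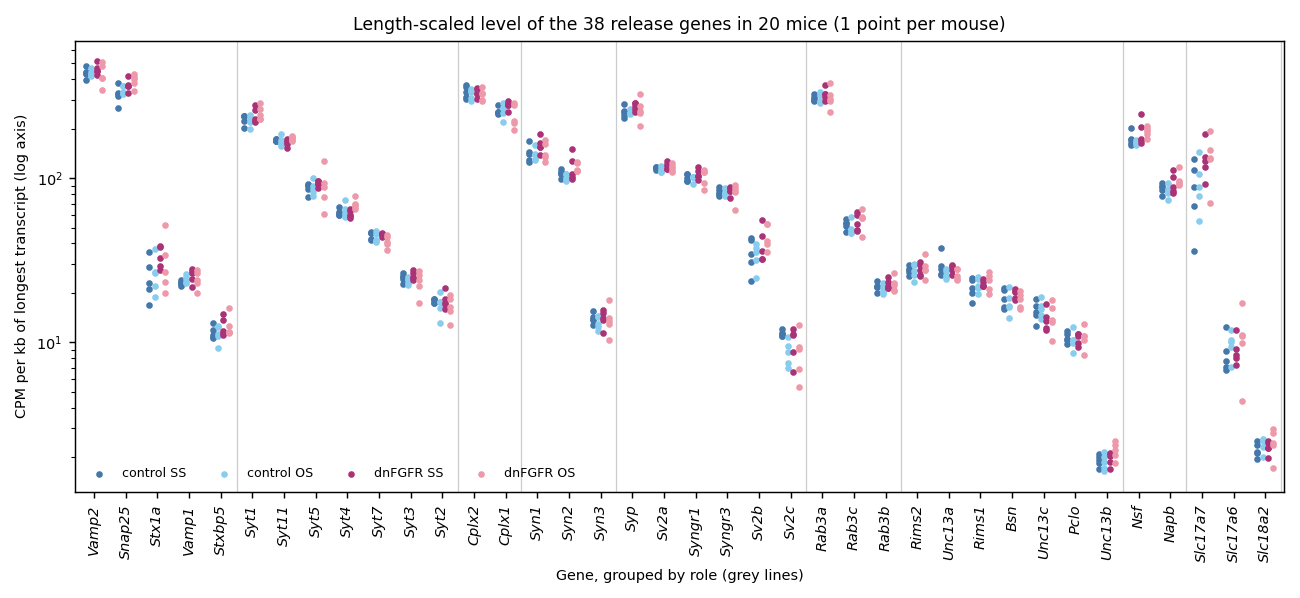
Length-scaled level (CPM per kb of the longest transcript, log axis) of each of the 38 genes, 1 point per mouse and 1 color per group of 5 mice, with genes grouped by role. Levels run from Vamp2 near 440.0 down to Unc13b near 1.99 CPM per kb, the 4 groups lie over one another for most genes, and the points of Slc17a7 spread most.

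The promoters shown are those of the gene with the smallest p in any housing comparison (Sv2c), of the 2 vesicular glutamate transporters, which ran in opposite directions with markers of cortex (Slc17a7 and Slc17a6), and of the synapsin with the highest length-scaled level (Syn1). Each is the 250 bases before the RefSeq start on GRCm38.p6, 5′ to 3′ on the strand of the gene, at chr13:96132578-96132827, minus strand (Sv2c), chr7:45163671-45163920, plus strand (Slc17a7), chr7:51621580-51621829, plus strand (Slc17a6) and chrX:20920919-20921168, minus strand (Syn1). Capitals mark a GC box (GGGCGG or its complement CCGCCC; 2 of them overlap by 1 base near the start of Slc17a7), a cAMP response element (TGACGTCA) and the left part of an RE1 site (TTCAGCACC or GGTGCTGAA), which is bound by the repressor REST that holds neuronal genes silent outside neurons.
Sv2c: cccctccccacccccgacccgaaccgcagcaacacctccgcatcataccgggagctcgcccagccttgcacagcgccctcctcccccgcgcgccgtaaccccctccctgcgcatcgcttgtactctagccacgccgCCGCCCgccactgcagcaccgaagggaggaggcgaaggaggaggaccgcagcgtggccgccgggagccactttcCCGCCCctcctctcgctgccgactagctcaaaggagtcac
Slc17a7: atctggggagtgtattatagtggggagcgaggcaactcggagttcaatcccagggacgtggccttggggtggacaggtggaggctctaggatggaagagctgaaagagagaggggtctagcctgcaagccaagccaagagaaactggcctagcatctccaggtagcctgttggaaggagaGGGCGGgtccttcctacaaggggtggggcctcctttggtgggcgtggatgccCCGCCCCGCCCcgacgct
Slc17a6: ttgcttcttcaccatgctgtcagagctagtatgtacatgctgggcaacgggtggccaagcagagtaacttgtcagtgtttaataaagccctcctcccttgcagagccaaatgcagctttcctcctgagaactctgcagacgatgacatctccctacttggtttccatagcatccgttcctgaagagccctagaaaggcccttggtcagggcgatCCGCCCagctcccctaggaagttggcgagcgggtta
Syn1: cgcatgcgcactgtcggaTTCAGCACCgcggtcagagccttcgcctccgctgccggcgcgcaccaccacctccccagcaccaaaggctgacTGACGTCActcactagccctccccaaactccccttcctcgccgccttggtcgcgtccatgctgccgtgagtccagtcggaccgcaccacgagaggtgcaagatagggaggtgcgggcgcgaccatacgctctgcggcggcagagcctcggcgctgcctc
Promoter windows of 300 bases were found for 30 of the 38 genes. Only the 250 bases before the start were searched. There a GC box stood in 24 of their 38 windows (63.2%, some genes having several starts), and in 32.7% of all 32851 promoter windows of the mouse. Bases just after the start were found in a transcript of the same gene for Sv2c and Syn1, but not for Slc17a7 and Slc17a6. The cAMP response element and the left RE1 part were found in the Syn1 window alone among the 30 genes, and in 1.55% and 0.301% of all windows. These matches describe letters and were not linked to any level below.

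Counted reads per mouse ranged from 32353578 to 39871353, and the 38 genes took between 1.34% and 1.68% of them. Gnrh1 was at 2.01 ± 0.45 CPM in control SS and 2.01 ± 0.37 CPM in control OS mice, and at 1.27 ± 0.16 and 1.42 ± 0.42 CPM in dnFGFR SS and OS mice (SD, n = 5 mice each). The 7 markers of preoptic and hypothalamic neurons were all detected, but so were markers of neighbouring tissue: the 6 of striatal neurons summed to between 1541 and 3071 CPM per mouse, against 90.2 to 145.7 CPM for the 7 preoptic ones. In dnFGFR OS replicate 5 reads fell on 18416 genes, and on 19101 to 19659 in each of the others. This mouse stood apart in a principal component analysis, so the values of Syt4, Cplx1, Napb and Unc13c and the trend with GC content are also given without it. In bulk tissue, fewer cells of a type and less RNA per cell cannot be told apart.

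All levels below are CPM, read counts scaled to 1 effective library size, listed from replicate 1 to 5, and levels are compared between genes only after division by the length of the longest transcript. Among the SNARE genes, Vamp2 (vesicle SNARE of fast release) had the highest length-scaled level, 440.0 ± 39.1 CPM per kb (SD over 20 mice). Vamp2 was at 1053, 948, 974, 873 and 965 CPM in control SS mice and at 973, 952, 919, 946 and 1030.1 CPM in control OS mice. In dnFGFR mice the values were 1025, 928, 983, 1132 and 983 CPM under SS housing and 895, 1122, 891, 1052 and 759.9 CPM under OS housing. The groups overlapped, and the lowest value belonged to dnFGFR OS replicate 5. Snap25, its partner on the plasma membrane, followed at 356 ± 40.3 CPM per kb. Vamp1, the other vesicle SNARE, made up 5.27% ± 0.68 of the length-scaled Vamp1 and Vamp2 total (SD, n = 20). Stx1a (syntaxin 1A) was lower, at 28.9 ± 8.45 CPM per kb, and Stxbp5 (tomosyn, which competes with VAMP2 for the SNARE bundle) was at 12.01 ± 1.56 CPM per kb. Of the 2 genes of SNARE disassembly, the ATPase Nsf led, at 181 ± 21.8 CPM per kb, with its adaptor Napb (beta-SNAP) at 90.3 ± 10.5 CPM per kb. 

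The calcium sensors were led by Syt1, the sensor of fast release in forebrain, at 236 ± 22.02 CPM per kb. Syt1 was at 1157, 1067, 1154, 975.1 and 1151 CPM in control SS mice and at 1140.4, 965, 1167, 1055 and 1100.4 CPM in control OS mice. dnFGFR mice had 1247, 1098, 1060.0, 1342 and 1076 CPM under SS and 1104, 1095, 1163, 1262 and 1379.7 CPM under OS housing. Its groups overlapped in all comparisons. Syt2, the fast sensor better known from brainstem and spinal cord, made up 6.88% ± 0.92 of the length-scaled Syt1 and Syt2 total. Syt11, a form that does not act as a fast calcium sensor, came second among the 7 synaptotagmins at 169 ± 7.44 CPM per kb. Among the complexins, which clamp and then help the SNARE bundle, Cplx2 was at 328 ± 23.1 and Cplx1 at 258 ± 27.3 CPM per kb. Cplx2 was at 1804, 1482, 1754, 1534 and 1638 CPM in control SS mice and at 1668, 1455, 1725, 1502 and 1644 CPM in control OS mice. The dnFGFR values were 1631, 1708, 1501, 1749 and 1595 CPM for SS and 1475, 1629, 1445, 1593 and 1766 CPM for OS housing. The values of all 4 groups covered nearly the same range.

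The synapsins, which tie vesicles into a reserve pool, fell in the order Syn1 (146 ± 16.8 CPM per kb), Syn2 (110.4 ± 13.1) and Syn3 (13.8 ± 1.67). Syn1 was at 552, 409.7, 457, 419.9 and 473 CPM in control SS mice and at 454, 451, 427, 417 and 516 CPM in control OS mice. In dnFGFR mice the values were 532, 452, 501, 601 and 502 CPM under SS housing and 411, 523, 453, 552 and 439 CPM under OS housing. The groups overlapped, and the highest value was that of a dnFGFR SS mouse. Exons of Syn3 overlap those of Timp3 on the opposite strand over 1733 bases, and how strand was treated in counting is not given in the sources used here, so reads of the 2 genes cannot be told apart. Among vesicle membrane proteins Syp (synaptophysin, the classic vesicle marker) led at 259.8 ± 24.1 CPM per kb. Syp was at 807, 688, 728, 660.4 and 719 CPM in control SS mice and at 712, 710.1, 711, 697 and 747 CPM in control OS mice. dnFGFR mice had 776, 721, 809.5, 813 and 748 CPM under SS and 707, 923, 728, 777 and 590.2 CPM under OS housing. The highest and the lowest of the 20 values both came from dnFGFR OS mice. Sv2a, the widespread form of the SV2 family, held 70.8% ± 3.78 of the length-scaled total of Sv2a, Sv2b and Sv2c, and varied least of the 38 genes within groups, with an SD of 0.058 on the log2 scale.

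Rab3a, the main small GTPase of synaptic vesicles, made up 80.5% ± 2.13 of the length-scaled Rab3 total and stood at 312 ± 28.05 CPM per kb. Rab3a was at 505, 466.3, 483, 458 and 469 CPM in control SS mice and at 455, 521, 447, 461 and 497 CPM in control OS mice. The dnFGFR values were 486, 458, 504, 576 and 506 CPM for SS and 456, 586, 474, 499 and 390.3 CPM for OS housing. Again the highest and the lowest values were both from dnFGFR OS mice. Active zone genes were lower per length, led by Rims2 (a scaffold that recruits calcium channels) at 27.8 ± 2.61 CPM per kb and the priming factor Unc13a at 27.3 ± 2.94. Rims2 was at 129.6, 132, 143, 122 and 134 CPM in control SS mice and at 143, 112, 144, 124 and 131 CPM in control OS mice. In dnFGFR mice the values were 148, 133, 121, 141 and 123 CPM under SS housing and 132, 115, 140.5, 133 and 166 CPM under OS housing. These groups overlapped, and dnFGFR OS replicate 5 had the highest value. Unc13a held 61.8% ± 4.10 of the length-scaled Unc13 total. The lowest of all 38 was Unc13b, at 1.99 ± 0.23 CPM per kb.

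Of the loading transporters, Slc17a7 (VGLUT1, best known from cortex and hippocampus) stood at 112 ± 40.7 CPM per kb, above Slc17a6 (VGLUT2, the form typical of hypothalamus) at 9.51 ± 2.77 and Slc18a2 (VMAT2, of monoamine terminals) at 2.35 ± 0.30. Slc17a7 was at 402, 209, 273, 111 and 346 CPM in control SS mice and at 325, 169, 239, 273 and 444 CPM in control OS mice. dnFGFR mice had 390.1, 284, 416, 567.6 and 361 CPM under SS and 217, 597, 406, 455 and 400.2 CPM under OS housing. Slc17a7 had the largest spread within groups of the 38 genes, an SD of 0.55 on the log2 scale, against a median of 0.15 for the 38. Slc17a6 made up between 2.22% and 25.8% of the length-scaled total of the 2 glutamate transporters.

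In the order of length-scaled levels, Snap25 lay more than its SD below Vamp2, and Snap25, Cplx2 and Rab3a lay within 1 SD of one another from neighbour to neighbour. The order depended on the length used, and so did the leading gene among synaptotagmins, complexins, synapsins and active zone genes. With the median in place of the longest transcript, Syp came first at 1593 CPM per kb and Vamp2 second at 1057.

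The first comparison asked how OS housing moved the release genes in control mice. None of the 38 was called by edgeR's quasi-likelihood test at an adjusted p below 0.1 (Benjamini-Hochberg over all genes tested), where 0.124% of 17004 genes were called. At an unadjusted p below 0.05 there was 1 of the 38 by edgeR, DESeq2 and limma voom alike, against 7.2% of all genes by edgeR. The log2 fold changes, OS minus SS, ran from -0.38 to 0.18 with a median of -0.02, and 12 were positive, against 50.9% of all genes. That count lay between 8 and 19 with each mouse left out in turn, and was 19 without control OS replicate 2. The 95% interval lay within 0.5 of 0 on the log2 scale for 35 of the 38 genes and within 1 for all 38. Both the 3 synapsin and the 3 Rab3 genes had negative values, none with an unadjusted p below 0.05, and the 3 loading transporters had positive values, with a smallest unadjusted p of 0.27.

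The gene nearest to a call was Sv2c, the SV2 form best known from the basal ganglia. It was at 103, 99, 110.3, 100.1 and 103 CPM in SS mice and at 97.9, 63.5, 87, 79.2 and 67.9 CPM in OS mice. All 5 OS values lay below the 5 SS values, which were tightly grouped. The means were 103 ± 4.42 and 79.1 ± 14 CPM (SD, n = 5), a log2 fold change of -0.38 (SE 0.094), with an unadjusted p of 0.00099 and an adjusted p of 0.232 by edgeR's quasi-likelihood test. The groups did not overlap in this 1 gene of the 38, and in 1.61% of all genes tested. DESeq2 called it (adjusted p = 0.0219), as did limma voom with quality weights (adjusted p = 0.0818). Among the 2 SS and 5 OS mice that shared a date of sacrifice with the other housing, and with date as a block, the log2 fold change was -0.41 (SE 0.14, unadjusted p = 0.015, adjusted p = 1 by edgeR). Sv2c was at 109, 103, 60.2, 101 and 79.4 CPM in dnFGFR SS mice and at 84.9, 48.5, 62.4, 83 and 117 CPM in dnFGFR OS mice, and these groups overlapped widely. There the log2 fold change was -0.20, with a 95% interval from -0.65 to 0.26. The housing difference of Sv2c did not differ between genotypes beyond its error (interaction 0.19, 95% interval from -0.34 to 0.71, unadjusted p = 0.46 by edgeR).

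Markers of striatal neurons were set beside Sv2c. All 6 had negative log2 fold changes in control mice, with a median of -0.07. edgeR and limma voom called none of the 6, each with 2 at an unadjusted p below 0.05, and DESeq2 called 1, Rgs9. Their sum ran from 2460 to 3071 CPM in SS and from 2394 to 2908 CPM in OS mice. Across the 20 mice, after removal of group means, Sv2c had a Pearson r of -0.09 with that sum (permutation p = 0.71) and a Spearman rho of -0.11 (permutation p = 0.65). Without the 2 mice farthest from the median, r was -0.12. It was -0.41 in control mice alone and -0.005 in dnFGFR mice alone. Choroid plexus, which lies next to the ventricles, was another neighbouring tissue. Its 5 markers had positive log2 fold changes in control mice, with a median of 1.52, and none was called by edgeR, DESeq2 or limma voom (2, 1 and 3 at an unadjusted p below 0.05). Their sum ran from 35.2 to 1071 CPM in SS and from 51.1 to 1935 CPM in OS mice. The part of choroid plexus in the Sv2c difference was not tested.

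The positive value with the smallest p in control mice belonged to Vamp1. It was at 129.8, 126, 133, 138 and 130.4 CPM in SS and 143, 149, 139, 132 and 133 CPM in OS mice. The groups overlapped, and the log2 fold change was 0.08 (SE 0.047, adjusted p = 0.767 by edgeR).

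**Figure D2:**
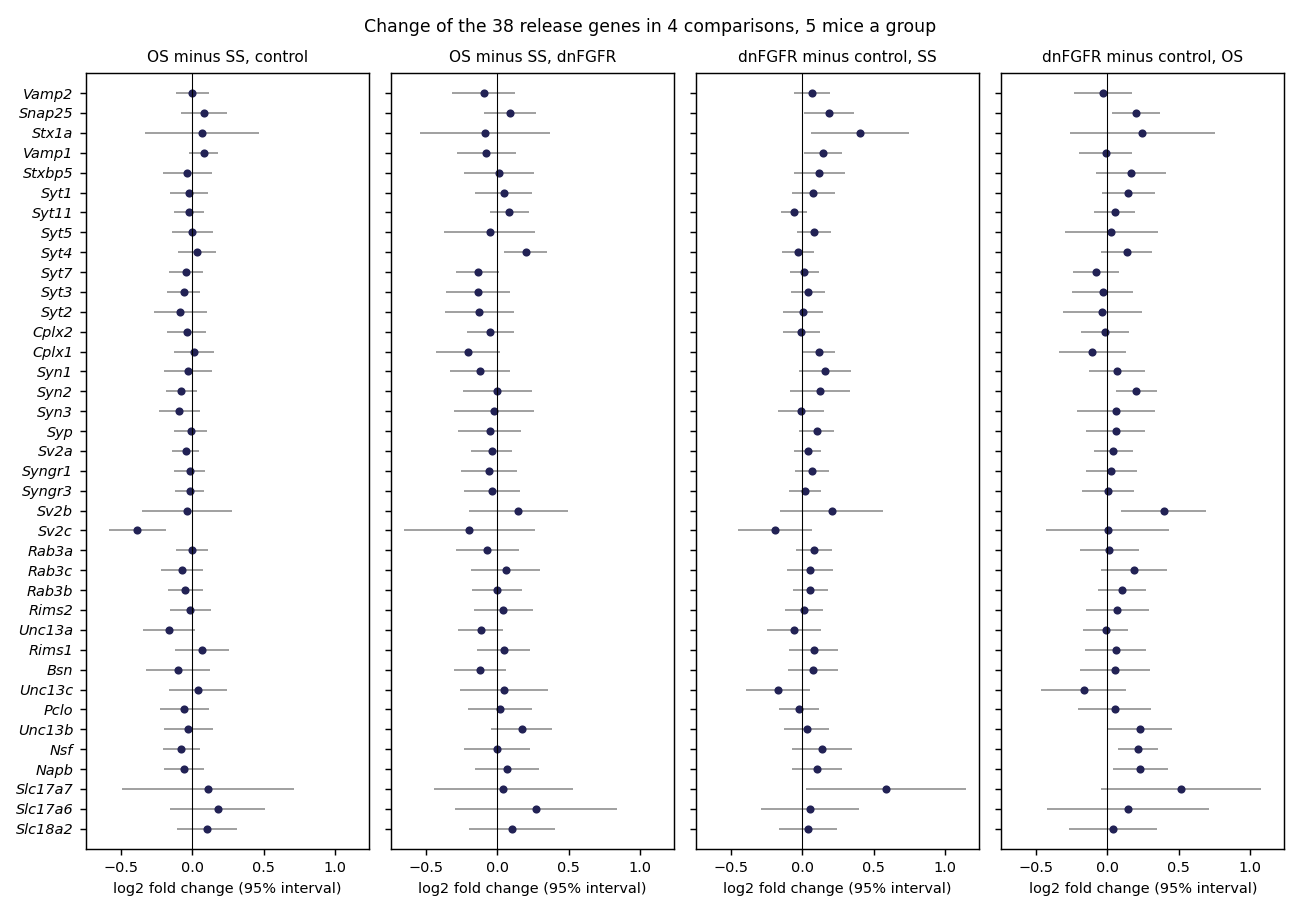
Log2 fold change (point) and 95% interval (line) from edgeR for each of the 38 genes in the 2 housing and the 2 genotype comparisons, 5 mice a group, on 1 shared axis. Sv2c at -0.38 stands apart in control mice, and Slc17a7 has the largest point value in both genotype panels, 0.59 and 0.51, with wide intervals.

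In dnFGFR mice, OS housing likewise gave no call among the 38 genes by edgeR, DESeq2 or limma voom, and edgeR called 0% of 16944 genes. At an unadjusted p below 0.05 there was 1 gene by edgeR and 1 by DESeq2, against 6.72% of all genes by edgeR. By limma voom there were 3, against 2276 of 16944 genes. The log2 fold changes ran from -0.21 to 0.27 with a median of -0.01, and 17 of 38 were positive, against 50.9% of all genes. That count lay between 13 and 20 with each mouse left out in turn. The intervals lay within 0.5 of 0 for 34 genes and within 1 for all 38.

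The smallest p went to Syt4, a synaptotagmin of dense-core and other vesicles that does not act as a fast calcium sensor. In dnFGFR mice it was at 252.8, 228, 222, 247 and 233 CPM under SS and at 273, 252.9, 266, 260.5 and 302 CPM under OS housing. The lowest OS value lay just above the highest SS value, so the groups did not overlap, as in 1.42% of all genes. The log2 fold change was 0.20 (SE 0.071, adjusted p = 0.726 by edgeR), and 0.16 without dnFGFR OS replicate 5. In control mice Syt4 was at 233, 260.0, 232, 239 and 241 CPM and 239.7, 226, 287, 251 and 230.4 CPM under SS and OS housing, with overlap. The interaction for Syt4 was 0.16 (SE 0.093, adjusted p = 0.963 by edgeR).

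The smallest p among negative values belonged to Cplx1. It was at 554, 605, 627, 606 and 642 CPM under SS and at 476, 626, 485, 613 and 427 CPM under OS housing in dnFGFR mice. Of the OS values, 3 lay below all SS values and 2 lay among them. The log2 fold change was -0.21 (SE 0.10, adjusted p = 0.729 by edgeR), and -0.14 without dnFGFR OS replicate 5, the lowest of the 5. In control mice Cplx1 was at 613, 538, 548, 545 and 550.0 CPM and 586, 626, 482, 547 and 581 CPM, and the groups overlapped. After removal of group means, Cplx1 had r = 0.60 with the striatal sum over 20 mice (permutation p = 0.0049, adjusted p = 0.173). In dnFGFR mice 0 of the 6 striatal markers had a positive housing value, with a median of -0.22. None was called by edgeR, DESeq2 or limma voom (2, 2 and 5 at an unadjusted p below 0.05). The part of striatal tissue in the Cplx1 difference was not tested. Syt4 and Cplx1 also had the smallest p in each direction of the housing by genotype interaction, where Cplx1 was at -0.22 (SE 0.13, adjusted p = 0.963 by edgeR).

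In the interaction as a whole, edgeR, DESeq2 and limma voom called 0 of the 38, and edgeR called 0% of 17445 genes. None of the 38 had an unadjusted p below 0.05 by edgeR or DESeq2, against 3.41% of all genes by edgeR. By limma voom 2 had, against 1502 of 17445 genes. Of the 38, 21 values were positive, against 50.1% of all genes. Between the housing comparisons of the 2 genotypes, which share no mouse, 7 genes were positive in both and 16 negative in both, against 29.6% and 27.9% of all genes.

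**Figure D3:**
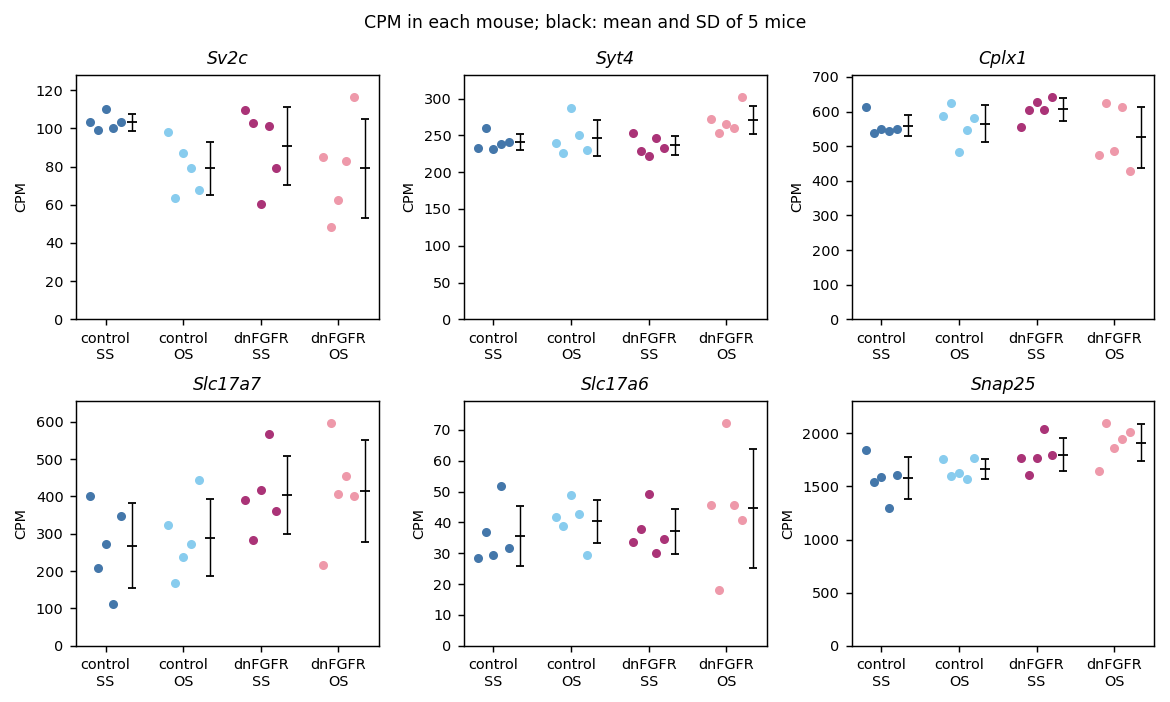
CPM of 6 release genes in each of the 20 mice, from replicate 1 to 5 within a group, with the mean and SD of 5 mice in black, on axes that start at 0. Sv2c separates SS from OS housing in control mice only, Syt4 does so by a narrow gap in dnFGFR mice, and Slc17a7 ranges from 110.6 to 597 CPM.

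What the genes shared in dnFGFR mice was a course along GC content. Over the 38 genes, the Spearman rho of the housing log2 fold change with GC content of the longest transcript was -0.71, given here as a description, since the genes come from the same libraries. Of the 19 genes with lower GC, 14 were positive, and of the 19 with higher GC, 3 were. Syt4, at 40.7% GC, was among the former, and Cplx1, at 56.0%, among the latter. The same trend held over all 16733 tested genes with a GC value (rho = -0.48). Without dnFGFR OS replicate 5 the rho was -0.30 over the 38 genes and -0.28 over all genes. In control mice it was -0.11 over the 38. Trends of single mice on GC content and transcript length were then taken out. With that, 23 of the 38 values were positive in dnFGFR mice in place of 17, while the share of all genes went from 50.9% to 55.6%. Syt4 came to 0.11 and Cplx1 to -0.12. Syt4 then had an unadjusted p of 0.052 by edgeR. None of the 38 was below 0.05, against 909 of 16733 genes.

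**Figure D4:**
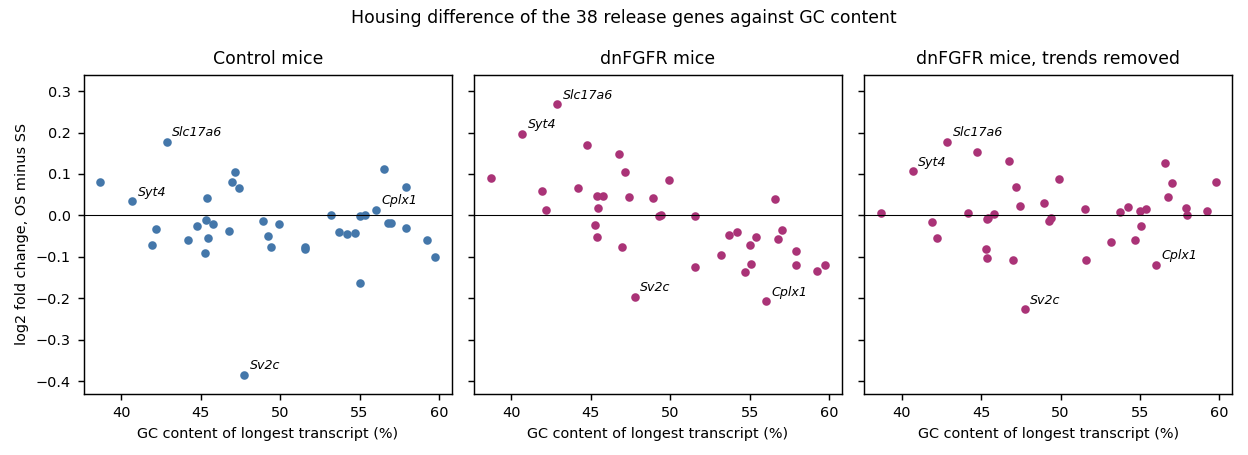
Log2 fold change for OS minus SS housing of the 38 genes against GC content of the longest transcript, in control mice, in dnFGFR mice, and in dnFGFR mice after trends of single mice on GC content and transcript length were taken out. The points slope downward in the middle panel, with rho = -0.71, and not in the others, with rho = -0.11 and 0.08.

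Genotype was compared within each housing. No collection date held both genotypes, so an effect of date and one of genotype cannot be told apart. In SS-housed mice none of the 38 genes was called by edgeR, DESeq2 or limma voom, where edgeR called 0.2% of 16992 genes and the groups overlapped for all 38, as they did not for 1.57% of all genes. At an unadjusted p below 0.05 edgeR found 5, all higher in dnFGFR mice, DESeq2 3 and limma voom 5. Over all genes the share was 8.63% by edgeR and the count 1640 of 16992 by limma voom. The 5 became 0 without control SS replicate 2 or 3, 1 without control SS replicate 4 or dnFGFR SS replicate 3 or 4, 2 without dnFGFR SS replicate 5 and 3 without control SS replicate 5, and lay between 4 and 7 without each other mouse. In OS-housed mice again none was called by any of the 3, where edgeR called 0.0531% of 16941 genes. By each, 6 had an unadjusted p below 0.05, against 7.02% of all genes by edgeR and 1840 of 16941 by limma voom. Those 6 became 3 without control OS replicate 2, and lay between 4 and 7 without each other mouse. There the Spearman rho of the log2 fold change with GC content was -0.38 over the 38 and -0.35 over all genes. Without dnFGFR OS replicate 5 it was -0.09 and -0.14. With GC and length trends removed, 9 of the 38 had an unadjusted p below 0.05 by edgeR, against 1435 of 16740 genes.

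The signs leaned one way. In SS-housed mice 30 of 38 log2 fold changes, dnFGFR minus control, were positive and in OS-housed mice 29, against 51.6% and 50% of all genes, and 55.7% and 56.3% of tested genes with a mean log2 CPM of at least 5. The medians over the 38 were 0.06 and 0.05. The first was 0.03 without dnFGFR SS replicate 4, and the second 0.03 without control OS replicate 2 and 0.09 without control OS replicate 1. In the 2 comparisons, which share no mouse, 24 genes were positive in both and 3 negative in both, against 28.6% and 26.9% of all genes. Leaving out each mouse in turn gave 27 to 32 positive genes in SS-housed and 25 to 30 in OS-housed mice. These counts are a description, since the genes come from the same libraries. Per mouse, the log2 deviation averaged over the 38 ran from -0.127 to 0.074 in control SS and from -0.012 to 0.165 in dnFGFR SS mice. It ran from -0.150 to 0.018 in control OS and from -0.061 to 0.096 in dnFGFR OS mice. Both pairs of groups overlapped, and the pooled SD was 0.072. Of other lists, 6 and 5 of 7 general neuron markers were positive, and 0 of 5 oligodendrocyte markers (medians -0.15 and -0.14) and 0 of 6 striatal markers (medians -0.18 and -0.29) were. None of these was called by edgeR (1 and 2, 2 and 2, and 4 and 5 at an unadjusted p below 0.05) or limma voom, and DESeq2 called 1, the striatal marker Rgs9 in SS-housed mice. Their part in the lean of the release genes was not tested.

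In SS-housed mice the smallest p went to Stx1a, a SNARE of the plasma membrane. It was at 76.8, 46, 49.7, 36.4 and 62.7 CPM in control and at 62.9, 60, 82.4, 83.6 and 70.4 CPM in dnFGFR mice. The groups overlapped, with the 5 dnFGFR values in the upper part of the control range and above. The log2 fold change was 0.40 (SE 0.16, adjusted p = 0.479 by edgeR). In OS-housed mice Stx1a was at 57.9, 47.5, 41.2, 57.6 and 80.5 CPM in control and at 43.5, 112, 58.2, 73.7 and 50.4 CPM in dnFGFR mice, a log2 fold change of 0.24 with an unadjusted p above 0.05. Snap25 was positive in both, at 0.19 (SE 0.081) and 0.20 (SE 0.078), with adjusted p of 0.528 and 0.655 by edgeR. 

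In OS-housed mice the smallest p went to Nsf. It was at 618, 622, 643, 599.6 and 626 CPM in control and at 652, 747, 702, 723 and 782 CPM in dnFGFR mice. All 5 dnFGFR values lay above the 5 control values. The log2 fold change was 0.21 (SE 0.066, adjusted p = 0.6004 by edgeR). Syn2 was the only other of the 38 whose groups did not overlap there, at 368, 379, 407, 388 and 410.3 CPM in control and 433, 483, 426, 428 and 477 CPM in dnFGFR mice. Its log2 fold change was 0.20 (SE 0.066, adjusted p = 0.639 by edgeR). Groups of 1.56% of all genes did not overlap in this comparison. In SS-housed mice Nsf was at 762, 614, 653, 598 and 645 CPM in control and at 766, 619.6, 646, 924 and 654 CPM in dnFGFR mice, with overlap. Sv2b (0.39, SE 0.14), Napb (0.23, SE 0.090), Snap25 (above) and Unc13b (0.23, SE 0.10) came next by p, with adjusted p of 0.646, 0.655, 0.655 and 0.702 by edgeR. Without dnFGFR OS replicate 5, Napb was at 0.16.

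The negative value with the smallest p was that of Unc13c, a priming factor best known from cerebellum, in both genotype comparisons. In SS-housed mice it was at 111, 146, 136, 161 and 129 CPM in control and at 126, 151, 104, 108 and 119 CPM in dnFGFR mice. In OS-housed mice the values were 147, 129, 165, 140.5 and 122 CPM in control and 142, 89.6, 117, 119.9 and 159 CPM in dnFGFR mice. Both pairs of groups overlapped, and the log2 fold changes were -0.17 (SE 0.10) and -0.16. The value under SS housing was -0.26 without dnFGFR SS replicate 2 and -0.10 without control SS replicate 4. Under OS housing it was -0.27 without dnFGFR OS replicate 5, -0.10 without control OS replicate 3 and -0.06 without dnFGFR OS replicate 2. With GC and length trends removed, the value under OS housing was -0.22 (unadjusted p = 0.0052, adjusted p = 0.396 by edgeR).

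The value farthest from 0 in both genotype comparisons was that of Slc17a7, at 0.59 (SE 0.26, adjusted p = 0.553 by edgeR) in SS-housed and 0.51 (SE 0.26, adjusted p = 0.730 by edgeR) in OS-housed mice. Leaving out 1 mouse moved the first between 0.39 and 0.78. Cortical excitatory neurons are a cell type that a slice of this region can include, and 4 of their markers (Neurod6, Neurod2, Tbr1 and Emx1) were set beside it. None of the 4 was at 0, all 4 were positive in both genotype comparisons, with medians of 0.51 and 0.49, and none was called by edgeR, DESeq2 or limma voom (1 and 1 with an unadjusted p below 0.05 by edgeR). Their sum ran from 37.8 to 132 CPM in control SS, 60.0 to 136 in control OS, 86.1 to 173 in dnFGFR SS and 76.8 to 182 CPM in dnFGFR OS mice.

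Mouse by mouse, Slc17a7 followed that sum closely. Its level spanned 5.396-fold over the 20 mice, whereas its ratio to the summed markers stayed between 2.82 and 3.40. The median ratio was 2.974 in control SS, 2.948 in control OS, 3.304 in dnFGFR SS and 3.215 in dnFGFR OS mice. After removal of group means, Pearson r was 0.99 and Spearman rho 0.97 over the 20 mice (permutation p = 1e-05 for both, the smallest that 100000 permutations can give; adjusted p = 0.00281 over 17441 genes). Without the 2 mice farthest from the median r was 0.99. It was 0.996 in the 10 control and 0.987 in the 10 dnFGFR mice. Slc17a6 ran the other way (r = -0.57, rho = -0.67, permutation p = 0.00905 and 0.00164, adjusted p = 0.147). The values of Slc17a6 were 28.3, 36.9, 29.3, 51.7 and 31.7 CPM in control SS and 41.6, 38.8, 49, 42.6 and 29.5 CPM in control OS mice, and 33.5, 37.7, 49.2, 30.2 and 34.5 CPM in dnFGFR SS and 45.8, 18.2, 72.2, 45.6 and 40.8 CPM in dnFGFR OS mice. The lowest share of Slc17a6 in the pair was in dnFGFR OS replicate 2, which had the highest cortical sum, and the highest share in control SS replicate 4, which had the lowest.

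**Figure D5:**
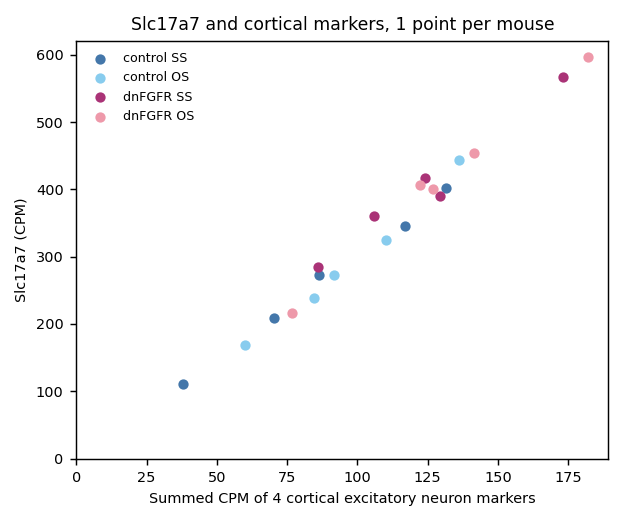
Slc17a7 CPM against the summed CPM of 4 cortical excitatory neuron markers, 1 point per mouse, colored by group, on axes that start at 0. The 20 points lie close to 1 line, from control SS replicate 4 at 110.6 CPM to dnFGFR OS replicate 2 at 597 CPM.

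In the same test across all genes, 7 of the 38 release genes correlated positively with the cortical sum at an adjusted p below 0.05 (Benjamini-Hochberg) and none negatively, against 1.86% and 0.7% of 17441 genes, and 22 of the 38 had a permutation p below 0.05, against 15.3%. After Slc17a7 came Snap25 (r = 0.91), Sv2b (0.89) and Stx1a (0.84), then Syn1 (0.77), Rims1 (0.77) and Syt7 (0.72). Of these 7 genes, 4 (Slc17a7, Snap25, Sv2b and Stx1a) had an unadjusted p below 0.05 by edgeR in a genotype comparison. So did Vamp1, Cplx1, Syn2, Unc13b, Nsf and Napb, which were not among the 7. Their r lay between -0.39 (Vamp1) and 0.63 (Nsf). Of the genes in the other direction, Unc13c had r = -0.64 (adjusted p = 0.0750). With the striatal sum none of the 38 had an adjusted p below 0.05, against 0.258% positive and 0.0229% negative of 17439 genes, and 4 had a permutation p below 0.05, against 16.1%. The part of cortical tissue in the genotype differences of the release genes was not tested.

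Genes of the same pathway outside the 38 were counted as well. Of 41 other release genes all were tested in each comparison, and none was called by edgeR or limma voom. DESeq2 called 1 in each of 3 comparisons, Syt17 for housing in control mice, Cadps2 for genotype in SS-housed and Syt17 for genotype in OS-housed mice. At an unadjusted p below 0.05 edgeR gave 4 and 2 in the housing comparisons of control and dnFGFR mice, and 5 and 6 in the genotype comparisons of SS- and OS-housed mice. The shares of all genes were 7.2%, 6.72%, 8.63% and 7.02%. For dnFGFR minus control, 23 of the 41 were positive under SS and 23 under OS housing, against 51.6% and 50% of all genes. The medians over the 41 were 0.02 and 0.03. In control mice the smallest p was that of Syt17, a synaptotagmin-like protein, at 22.2 ± 1.49 CPM under SS and 18.5 ± 0.88 CPM under OS housing (SD, n = 5; log2 fold change -0.27, adjusted p = 0.248 by edgeR). In dnFGFR mice it was that of Rims4, a short RIM form, at 15.4 ± 1.14 and 10.7 ± 2.73 CPM (log2 fold change -0.52, adjusted p = 0.726 by edgeR). Between genotypes, Syt17 was at 18.5 ± 0.88 CPM in control and 27.1 ± 7.05 CPM in dnFGFR mice under OS housing (log2 fold change 0.55, adjusted p = 0.486 by edgeR). Slc32a1, the transporter that loads GABA and glycine, was at 339 ± 25.7 and 276 ± 48.7 CPM there (log2 fold change -0.30, adjusted p = 0.655 by edgeR). Under SS housing Cadps2, a priming factor of dense-core vesicles, was at 49.1 ± 4.22 CPM in control and 60.3 ± 7.91 CPM in dnFGFR mice (adjusted p = 0.270 by edgeR), and Slc18a3, which loads acetylcholine, at 15.9 ± 1.58 and 13.01 ± 0.95 CPM (adjusted p = 0.308 by edgeR).

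The 14 genes of endocytic recycling, by which vesicle membrane is recovered, also gave no call by edgeR, DESeq2 or limma voom, with 0 and 1 by edgeR at an unadjusted p below 0.05 in the housing comparisons and 2 in each genotype comparison. Pacsin1, which shapes membrane at endocytic sites, had the smallest p in dnFGFR mice, at 352 ± 17.5 CPM under SS and 287 ± 36.7 CPM under OS housing (SD, n = 5; log2 fold change -0.29, adjusted p = 0.726 by edgeR). In the same list 12 and 11 of 14 genes were positive for dnFGFR minus control under SS and OS housing, against 51.6% and 50% of all genes.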

How the data were processed

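Bulk RNA-seq was made of the POA of 20 male mice, 5 in each of 4 groups assigned by the labels. The authors received alignments to GRCm38 made with HISAT2, counted reads on RefSeq genes with Rsubread and deposited whole-number counts for 25239 genes, not normalized. The library kit's strandedness and the options for strand and multi-mapping reads are not given in the sources used here. The table also held 20 columns of no sample described here, and these were not used.

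Genes passing filterByExpr were tested with edgeR 4.0.16 (TMM, quasi-likelihood test, R 4.3.3), each comparison on the mice of its own groups and the interaction on all 20, with Benjamini-Hochberg adjusted p below 0.1, the threshold of the study. Intervals are 95%. CPM use TMM library sizes. The 38 genes, the gene lists and the alternatives were chosen with earlier results of these data known. Values in every mouse are given, by rule, for the gene of smallest p on either side of 0 in every comparison and for the gene with the highest length-scaled level in each role; Snap25, Syn2, Sv2b, Napb, Unc13b, Slc17a6 and the genes named for correlation with markers were added after their values were seen. Correlations used log2(CPM + 1) minus group means, with 100000 permutations over mice. They were adjusted over all genes tested. Another marker of cortical neurons and another of oligodendrocytes are not reported here. Length and GC content are of the longest GENCODE transcript on GRCm38 (97.9% of genes, 38 of 38 here). Promoters are from RefSeq on GRCm38.p6, matched for 30 of 38 genes. Sequences of Snap25, Syn3, Vamp2, Syt7, Syt5, Syngr3, Syt4 and Rims2 were not used here. Alternatives were DESeq2 1.42.0, voom with quality weights in limma 3.58.1, a low-count filter that was dropped or set to 10 counts in all mice, RLE factors, adjusted p below 0.05, all 4 groups in 1 fit, a replicate block, removal of GC and length trends, dates that held both housings, DESeq2 in 1 object of 19 or (chosen after seeing the data) 20 mice, and each mouse left out. The fit steps were tested on simulated data.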

Additional observations from a re-analysis of the deposited data

Results flagged for a closer look

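Of 152 sets of 5 mice (38 genes in 4 groups), 5 held 1 mouse far from the other 4 by Dixon's test (gap over range above 0.71), where chance would give about 7.6. In dnFGFR OS replicate 5, Stxbp5 was at 142 CPM and the other 4 mice at 100.4 to 112 CPM, and Napb was at 512 CPM and the others at 398 to 423 CPM. In control SS replicate 1, Cplx1 was at 613 CPM and the others at 538 to 550.0 CPM. Syngr1 was at 385 CPM in control OS replicate 2 and at 422 to 426 CPM in the other 4. Rab3c was at 491 CPM in control OS replicate 3 and at 389 to 414 CPM in the others.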

How the results depend on the processing

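The count of release genes called was 0 under the main setting in all 5 comparisons and stayed 0 under every alternative and with each mouse left out, except for housing in control mice. There it was 1, Sv2c, under DESeq2 (log2 fold change -0.39), limma voom (-0.38), removal of GC and length trends (-0.35, adjusted p = 0.0473) and the same with a replicate block (-0.36, adjusted p = 0.0286). With a replicate block alone Sv2c had an adjusted p of 0.108, and with all 4 groups in 1 fit an adjusted p of 1. Over all its alternatives the adjusted p of Sv2c ran from 0.0219 to 1, and with each mouse left out the log2 fold change lay between -0.47 and -0.32. The cause was not tested. The block changed no other call, and same-numbered mice did not pair: the correlation of their deviations lay between -0.25 and 0.24, and at most 1 of 5 pairs per comparison correlated best with its own number.

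Over all genes, edgeR's 21 calls for housing in control mice became 157 with DESeq2, 66 with limma voom, 43 without GC and length trends (65 with the block), 32 with at least 10 counts, 6 at an adjusted p below 0.05, 0 with all 4 groups in 1 fit, 1 on shared dates, and 9 with DESeq2 in 1 object of 20 mice. With each mouse left out they ranged from 0 to 32. In dnFGFR mice the 0 calls became 5 with DESeq2, 72 in 1 object of 19 mice and 275 of 20. For genotype, 34 calls in SS-housed mice became 223 with DESeq2, 53 without GC and length trends and 59 with the block as well (21 to 70 with a mouse left out), and 9 in OS-housed mice became 78 with DESeq2, 27 with limma voom, 22 without trends, 45 with all 4 groups in 1 fit, 3 with the block and 5 at an adjusted p below 0.05 (3 to 16 with a mouse left out). The interaction went from 0 to 1 with DESeq2.

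With the median transcript length, length-scaled levels became 1593 CPM per kb for Syp, 1057 for Vamp2, 910.0 for Nsf, 354 for Rab3a, 346 for Syt1 and 96.6 for Rims2. Syt5 (350), Cplx1 (430), Syn2 (157) and Unc13a (269) then led their roles, in place of Syt1, Cplx2 (328), Syn1 (147) and Rims2. Group sizes of 5 mice limit the precision: 95% intervals lay within 0.5 of 0 on the log2 scale for 33 to 35 of the 38 genes. In each comparison the gene of lowest p on either side of 0 kept its sign under every alternative. With GC and length trends removed, 16 of the 38 housing values in dnFGFR mice changed sign, Stx1a, Syn1, Cplx2 and Rab3a among them, and 2 to 14 in the other comparisons, none of them beyond 0.133 in size under either setting. With a replicate block, 2 in place of 5 genes had an unadjusted p below 0.05 for genotype in SS-housed mice. The median over the 38, which was not tested, did not keep its sign for housing in dnFGFR mice (-0.01, to at most 0.01). Nor did that for the interaction (0.005, and -0.01 without control SS replicate 1).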
